A study of Mus musculus with 6 samples.

Results

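The genes described here are 47 lysosomal genes, picked by symbol from a list of lysosomal hydrolases, lysosomal membrane proteins, subunits of the vacuolar proton pump and the transcription factors that drive lysosomal genes. They make up 47 of the 25701 genes in the count table. The rule that picks them uses no measured value, although they were chosen with earlier results of these data known. All 47 passed the filter on low counts that left 13485 genes for testing. By role they fall into 22 hydrolases, 4 soluble proteins that are not enzymes of this kind, 6 membrane proteins, 12 subunits of the proton pump and 3 regulators. The hydrolases comprise 11 glycosidases, 5 sulfatases and 6 enzymes that cut lipids, peptides or phosphate esters.

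Lysosomes are acidic organelles in which engulfed and internal material is broken down, and macrophages, as professional phagocytes, hold many of them. The vacuolar ATPase (V-ATPase) pumps protons into the lumen through its membrane sector V0, powered by ATP hydrolysis in its cytosolic sector V1, and the hydrolases work at the resulting low pH. Tfeb, Tfe3 and Mitf, members of the MiT/TFE family, bind E-box motifs in lysosomal gene promoters, and the mTORC1 kinase keeps them in the cytoplasm when nutrients are plentiful, so their activity is set largely by location and phosphorylation, which RNA-seq does not measure.

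Bulk RNA-seq was performed on tumor-associated macrophages from 3 MCT2 CO and 3 MCT2 KO mice, to ask how loss of MCT2 in the host alters them. MCT2, encoded by Slc16a7, carries pyruvate, lactate and other monocarboxylates across membranes. MCT2 KO animals were conditional knockouts (MCT2loxP/loxP; Cre+, the Cre from mCre-Tg mice, C57BL/6 background) given tamoxifen at 8 weeks of age, whereas MCT2 CO animals received vehicle, so the deletion and tamoxifen exposure cannot be told apart. All mice were injected subcutaneously in the flank 2 days later with TC1 cells, a mouse lung tumor line that is not itself deleted for Slc16a7, and tumors grew for 24 days. The study reports larger tumors in MCT2 KO at the endpoint, so tumor size and the deletion cannot be told apart either. It also does not exclude effects of Cre expression. CD11b+ cells were then taken from digested tumors with magnetic beads. The labels name lung as the tissue, whereas the design describes flank tumors, and the study describes the mice as male and the deletion as systemic, without stating the promoter of the Cre transgene.

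A palindrome known as the CLEAR core, the letters TCACGTGA built around the E-box CACGTG, is the motif through which MiT/TFE factors are known to act, and the promoters of the members that hold it are shown first. RefSeq promoter windows (GRCm38.p6, 250 bases before to 50 bases after each start) were matched for 40 of the 47 members. Searched on both strands, the CLEAR core was present in 5 members, or 12.5%, against 1.12% of 27025 genes with a window. Each line below holds 40 bases, 5′ to 3′ on the strand of the gene, with the CLEAR core in capitals, and Gla has a pair of copies.
Atp6v0d1, chr8:105566045-105566084, minus strand: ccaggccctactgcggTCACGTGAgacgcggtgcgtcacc
Atp6v1a, chr16:44139368-44139407, minus strand: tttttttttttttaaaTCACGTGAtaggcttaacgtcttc
Cln3, chr7:126583335-126583374, minus strand: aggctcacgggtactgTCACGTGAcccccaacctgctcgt
Gla, upstream copy, chrX:134601210-134601249, minus strand: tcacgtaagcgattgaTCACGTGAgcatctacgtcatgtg
Gla, downstream copy, chrX:134601177-134601216, minus strand: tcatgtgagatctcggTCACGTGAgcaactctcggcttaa
Mcoln1, chr8:3500457-3500496, plus strand: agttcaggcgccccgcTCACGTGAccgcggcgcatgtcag
The first base of the motif lay 4 bases before the start in Atp6v0d1, 46 in Mcoln1, 122 in Cln3, 132 in Atp6v1a, and 228 and 195 in Gla. These starts are those of RefSeq and can differ from the GENCODE M21 gene ends used for the gene positions given further on, and in 3 of the 5 members (Atp6v1a, Cln3 and Mcoln1) the motif lies inside the M21 gene span.

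The shorter E-box CACGTG, which the CLEAR core contains, was found in 11 members (Arsa, Atp6v0d1, Atp6v1a, Cln3, Gaa, Gla, Glb1, Lamp1, Mcoln1, Naglu and Sgsh), or 27.5%, against 8.09% of genes. The one-sided form GTCACGTG, which reads CACGTGAC on the other strand and overlaps both, was found in 9 members, against 2.55% of genes. The M-box TCATGTG, a site described for Mitf, was found in 6 members (Acp5, Atp6v0c, Gla, Grn, Ppt1 and Tpp1), or 15%, against 4.31% of genes. The median log2 fold change between MCT2 KO and MCT2 CO was 0.17 over the 5 members with the CLEAR core and 0.22 over the 11 with an E-box, beside 0.19 over all 47. A motif is a description of these windows only and does not show binding. As these factors are known to bind in lysosomal promoters, a higher share among the members is no new result. The genes compared were not limited to those tested here.

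Libraries held 24863611 to 31713704 counts. Values are given as CPM, counts per 1000000 counts of the library after scaling by edgeR's TMM factors, in the order of replicates 1, 2 and 3 of each group, and log2 fold changes are MCT2 KO relative to MCT2 CO with their standard error (SE). Adjusted p values are from the quasi-likelihood test of edgeR, corrected by Benjamini-Hochberg across all 13485 genes. A gene was called where the adjusted p did not exceed 0.05 and the log2 fold change reached 0.58 in either direction. The targeted Slc16a7 was at 16, 11 and 11.2 CPM in MCT2 CO and at 8.22, 4.97 and 5.34 CPM in MCT2 KO, so the groups did not overlap but counts remained (log2 fold change -1.05 ± 0.24, adjusted p = 0.37, and 0.00908 by DESeq2). Counts per gene cannot show whether intact transcript was left, or in which cells. Itgam, which encodes CD11b, had 1 count in all and could not check the purification. In GENCODE M21 99.1% of its exonic bases lie inside the span of Gm49368, and the part of this overlap in the low count was not tested. All 10 macrophage markers were well expressed, from 115 CPM upward in every library, and summed to 4662 to 6207 CPM in MCT2 CO and 4822 to 8586 CPM in MCT2 KO.

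One library stood apart for the lysosomal genes. MCT2 KO replicate 1 held the highest value of 34 of the 47 members, and MCT2 CO replicate 3 the lowest of 32. Summed over the members, expression was 12747, 12189 and 10684 CPM in MCT2 CO and 16007, 11799 and 14027 CPM in MCT2 KO. MCT2 KO replicate 2 therefore lay below MCT2 CO replicates 1 and 2, and the groups overlapped. The same replicate 1 of MCT2 KO also held the highest level of 8 of the 10 macrophage markers, and in bulk samples more cells of a type and more RNA per cell cannot be told apart. The same holds for fewer cells of a type and less RNA per cell.

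**Figure D1:**
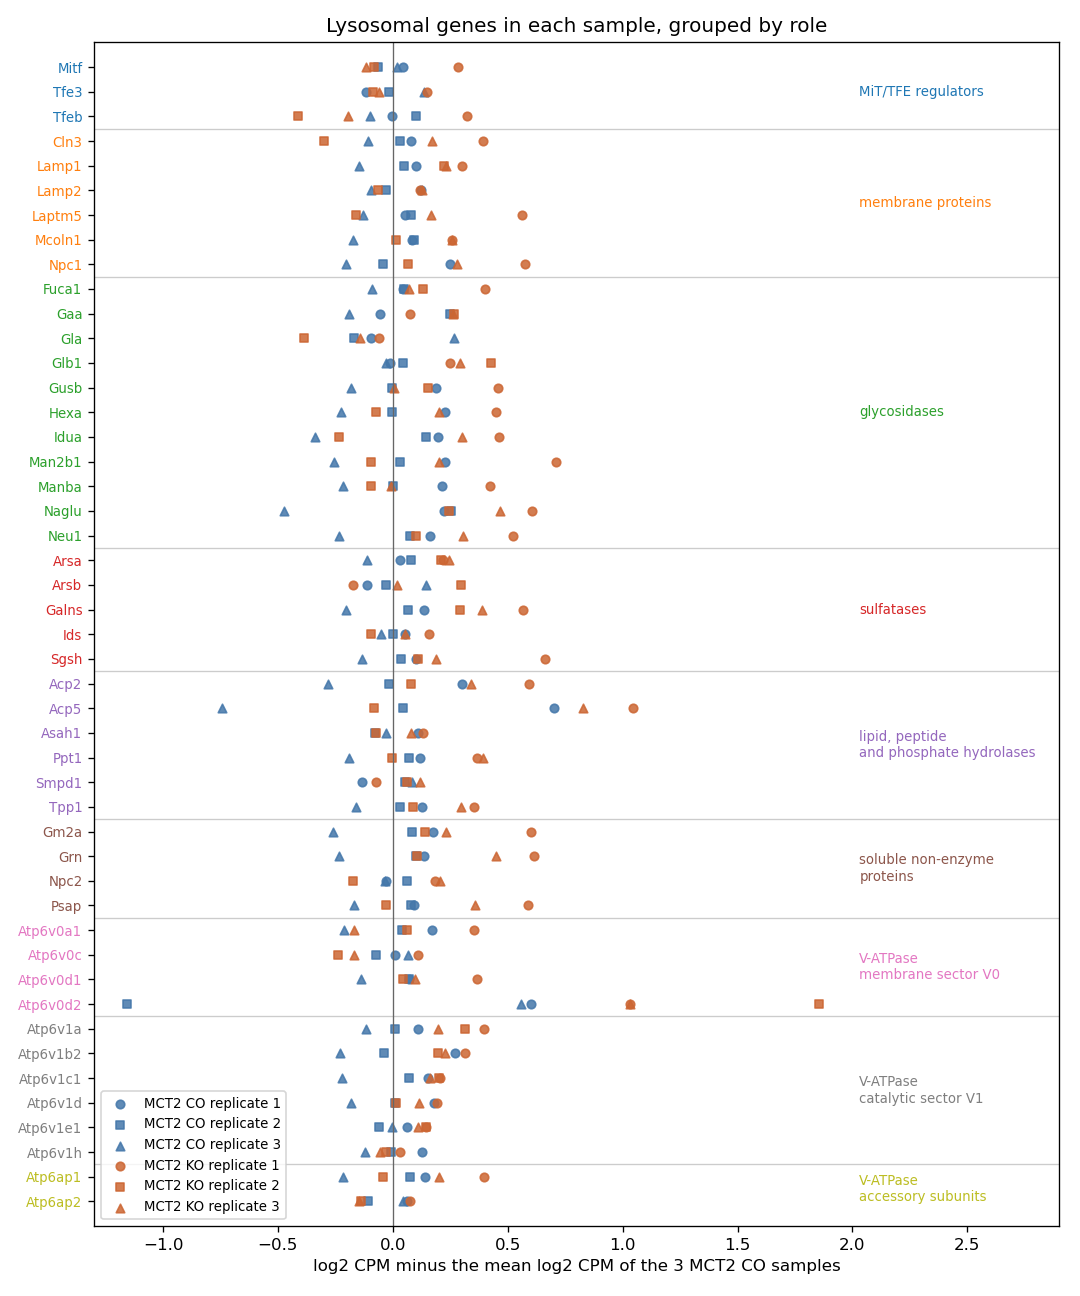
Each row is 1 of the 47 lysosomal genes, grouped by role, and each point is 1 of the 6 samples, placed by its log2 CPM minus the mean log2 CPM of the 3 MCT2 CO samples. MCT2 KO replicate 1 is the rightmost point in 34 rows and MCT2 CO replicate 3 the leftmost in 32, while Atp6v0d2 has the widest range.

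None of the 47 lysosomal members was called as changed, which says nothing of lysosomal genes outside the set. The study lists lysosome among the KEGG pathways enriched in its own differentially expressed genes from these cells. With edgeR 0 of the 47 members passed, as did 0.0% of all genes tested, and the smallest adjusted p among members was 0.38. DESeq2, which called 0.584% of 14202 genes, also called 0 members. At an unadjusted p under 0.05, 7 members (14.9%) were higher in MCT2 KO, beside 3.77% of all genes, and 0 were lower, beside 5.6% of all genes. These 7 were Glb1, Galns, Atp6v1a, Arsa, Atp6v0d2, Lamp1 and Grn.

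The members lay on the higher side in MCT2 KO by small amounts. The log2 fold change was above 0 in 42 of 47 members (89.4%), beside 50.1% of all genes, with a median of 0.19 and a range of -0.20 to 1.16. The median over all genes tested was 0.00. All 3 MCT2 KO samples lay above all 3 MCT2 CO samples in 10 members (21.3%), beside 7.07% of all genes, and below them in 0, beside 8.77%. These shares describe genes that move together across libraries, so they are not independent of each other. Without MCT2 KO replicate 1 the median was 0.11, without MCT2 CO replicate 3 it was 0.12, and without MCT2 KO replicate 2 it was 0.25. The number higher at an unadjusted p under 0.05 was 5, 4 and 20 in turn, beside 3.53%, 2.47% and 6.24% of all genes.

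This higher level accompanied that of the macrophage markers. All 10 of these markers had a log2 fold change above 0, with a median of 0.25 and none at an unadjusted p under 0.05, and the groups overlapped for each. The ratio of the summed lysosomal genes to the summed markers was 2.05, 2.23 and 2.29 in MCT2 CO and 1.86, 2.45 and 2.28 in MCT2 KO, so the groups overlapped fully, and the library with the highest lysosomal sum had the lowest ratio. In an alternative chosen after seeing the data, libraries were scaled to an equal geometric mean of the 10 macrophage marker counts. The median log2 fold change of all genes then shifted to -0.17 and that of the members to 0.01. Then 24 members lay above 0, beside 17.0% of all genes, while 41 lay above the median of all genes. The same 17.0% and -0.17 stand beside every later count and median under this scaling. Among these markers, Cd68 is also in a list of lysosomal membrane proteins described further on.

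**Figure D2:**
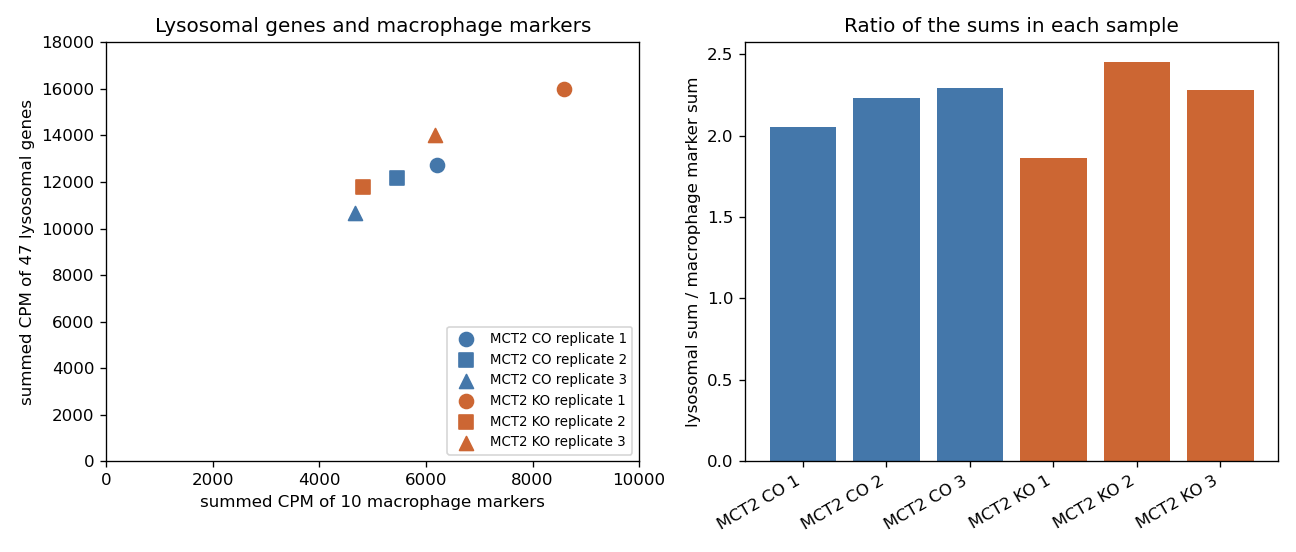
Left, the summed CPM of the 47 lysosomal genes against the summed CPM of 10 macrophage markers, 1 point a sample. Right, the ratio of these sums in each sample, from 1.86 to 2.45, with MCT2 CO and MCT2 KO overlapping.

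Other cell types and stress genes also differed between the groups. Fibroblast markers summed to 2015 to 3295 CPM in MCT2 CO and 1680 to 1790 CPM in MCT2 KO, with 0 of 6 markers higher and a median log2 fold change of -0.69, and DESeq2 called Col3a1, Dcn and Lum lower. Their sum was highest in MCT2 CO replicate 3, the library with the lowest lysosomal sum. Of 15 genes that respond to tissue dissociation, 2 were higher and the median was -0.33, with sums of 16879 to 20386 CPM in MCT2 CO and 14414 to 17381 CPM in MCT2 KO. Of 6 neutrophil markers tested, 5 were higher, 4 of them at an unadjusted p under 0.05, with a median of 1.70. The sum over all 10 listed neutrophil markers, 79.8 to 101 CPM in MCT2 CO and 61.7 to 179 CPM in MCT2 KO, was mostly Csf3r, which overlapped between groups. The granule gene Ngp was 28.2-fold higher, S100a9 3.66-fold and S100a8 2.88-fold, all from low levels, without overlap and called by DESeq2 (adjusted p = 0.00616, 0.000366 and 0.0184). Ngp was at 15.3 CPM and S100a9 at 20.9 CPM in MCT2 KO replicate 1, the highest library for both, and the defining Ly6g was at or near 0 in every library.

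Lymphocyte, mast cell and basophil markers were low and uneven. B-cell markers were lower in 5 of the 6 tested (median -0.97), and Cd79a was called by DESeq2 (adjusted p = 0.0152). All 7 listed summed to 21.2 to 23.6 CPM in MCT2 CO and 8.29 to 24.7 CPM in MCT2 KO. NK-cell markers were lower in 5 of 5 (median -0.51), with sums of 26.4 to 44.8 CPM and 19.3 to 41.9 CPM, and Gzma was called by DESeq2 (adjusted p = 0.00718). The 6 mast cell and basophil markers summed to 14.2 to 22.6 CPM in MCT2 CO and 11.5 to 21.8 CPM in MCT2 KO. Of these 2 passed the edgeR count filter, Mcpt8 (log2 fold change 0.52) and Hdc (-0.04). Under that filter, the mast cell protease Mcpt4 was lower in MCT2 KO and called by DESeq2 (adjusted p = 0.017). Cpa3 and Tpsb2 were also lower but not called (DESeq2 adjusted p = 0.211 and 0.122), and Fcer1a was near 0. T-cell markers had a median of 0.25, but all 7 were lowest in MCT2 KO replicate 2, whose sum was 10.3 CPM beside 36.3 CPM or more in every other library. The part of these cells and of dissociation in the lysosomal values was not tested.

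Levels of the members spanned more than 3 orders of magnitude per length of exon. Psap, the precursor of the saposins that present sphingolipids to their hydrolases, stood highest at 1093 ± 109 CPM per kb of exon in MCT2 CO (SD, n = 3), and was at 1366 ± 285 in MCT2 KO. Grn, the precursor of the granulins, followed at 297 ± 40.2 and 390 ± 67.7 CPM per kb. Next came Laptm5, a lysosomal membrane protein of blood cells, at 189 ± 14.3 and 220 ± 55.3 CPM per kb, then Lamp1 and Npc2, whose MCT2 CO levels of 150 ± 13.1 and 149 ± 5.71 did not differ beyond their spread. At the other end stood Mitf, Tfeb, Sgsh and, lowest of all, Atp6v0d2, at 0.399 ± 0.211 and 0.892 ± 0.314 CPM per kb.

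A few genes thus carried much of the lysosomal expression. Psap, Grn, Npc2 and Laptm5 together accounted for 45.7% to 50.2% of the members' counts in each library. The 47 members took 1.27%, 1.22% and 1.09% of all counts in MCT2 CO and 1.54%, 1.21% and 1.39% in MCT2 KO. The deposited gene lengths match whole gene spans for 46 of the 47 members, so counts were taken to include introns, although the counting setting is not stated. Levels per kb of exon are then uncertain for every member. A further limit holds for 12 members with over 1% of their exons inside the span of another gene, led by Lamp1 (64.4%, Grtp1), Acp2 (48.7%, Ddb2) and Sgsh (44.2%, Card14).

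**Figure D3:**
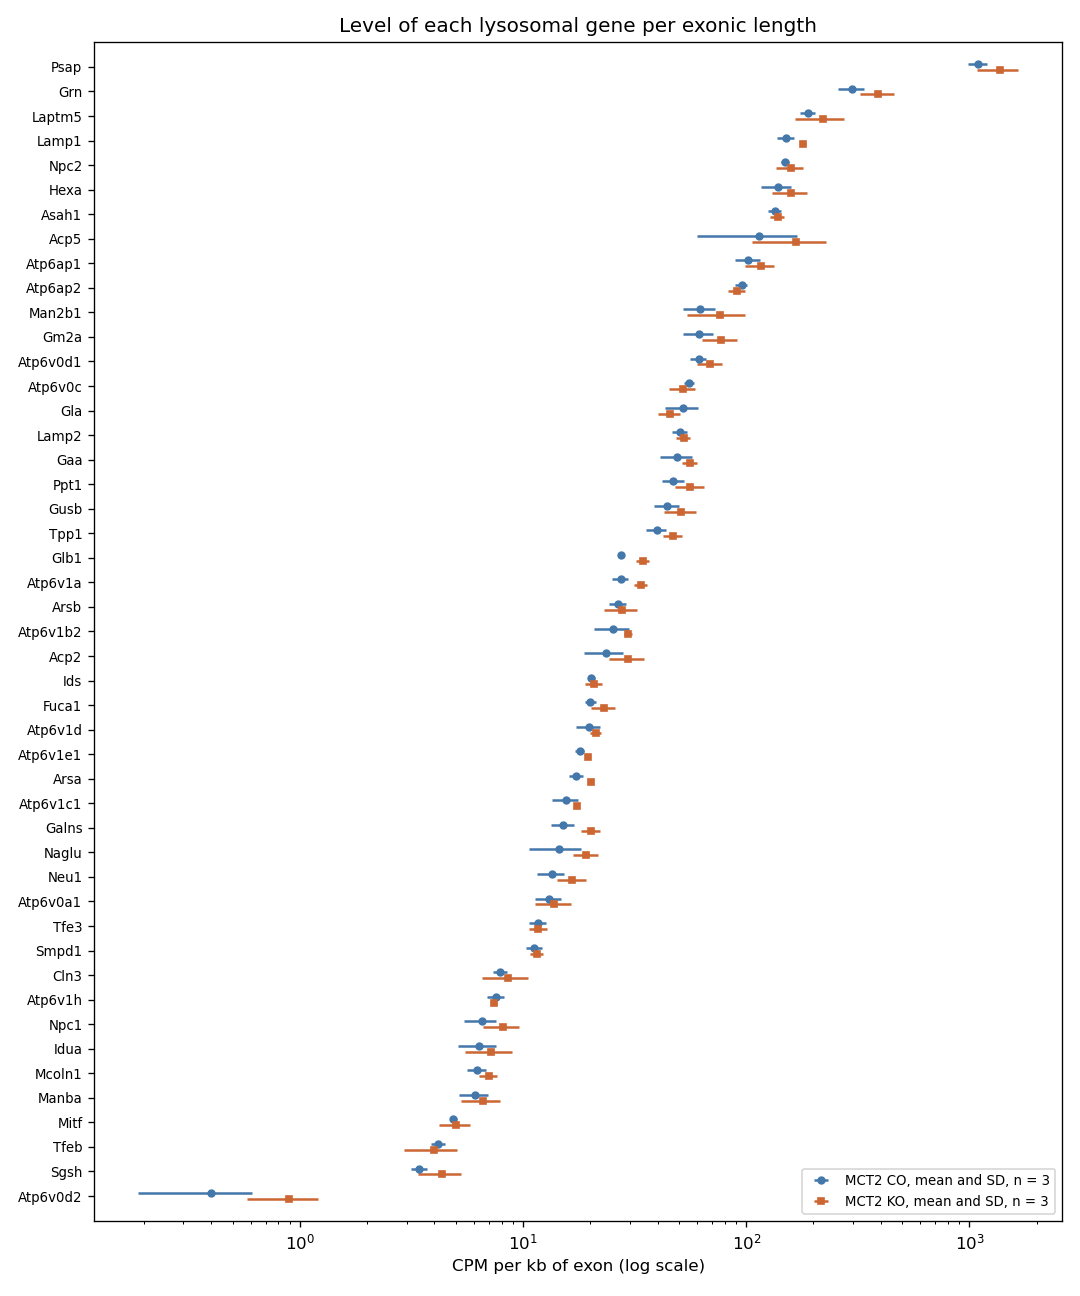
Mean level of each member in CPM per kb of exon, on a log axis, in MCT2 CO (circles) and MCT2 KO (squares), with bars for the SD of 3 samples. Psap at 1093 in MCT2 CO stands alone at the top and Atp6v0d2 at 0.399 alone at the bottom.

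The glycosidases remove sugars from glycolipids, glycoproteins and glycosaminoglycans. In 10 of 11 the log2 fold change was above 0, with a median of 0.21, and 1 of 11 reached an unadjusted p under 0.05. Under the scaling to macrophage markers, which puts all genes at -0.17, 8 of 11 were above 0 (median 0.03). Glb1, the beta-galactosidase that acts on GM1 ganglioside and keratan sulfate (chromosome 9, 114401076 to 114474898, plus strand, in GRCm38), was at 81.8, 85.1 and 80.7 CPM in MCT2 CO. In MCT2 KO it was at 98.1, 111 and 101 CPM. Every MCT2 KO value exceeded every MCT2 CO value, and replicates within each group lay close together. Its log2 fold change was 0.32 ± 0.08, the smallest p of all members (adjusted p = 0.38, edgeR), and 0.27 to 0.37 when any single sample was left out.

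Neu1, the lysosomal sialidase, was at 55.5, 52.2 and 42.2 CPM in MCT2 CO and at 71.3, 53.2 and 61.4 CPM in MCT2 KO (log2 fold change 0.31 ± 0.14, adjusted p = 0.547). Naglu, which removes N-acetylglucosamine from heparan sulfate, was at 43.6, 44.6 and 26.9 CPM in MCT2 CO and at 56.9, 44.3 and 51.7 CPM in MCT2 KO (0.41 ± 0.19, adjusted p = 0.558). For both, MCT2 KO replicate 2 lay among the MCT2 CO values, and MCT2 CO replicate 3 was the lowest of the 6 samples. Without that sample the log2 fold changes were 0.20 and 0.21. Man2b1, the lysosomal alpha-mannosidase and the glycosidase with the most counts, was at 579, 505 and 414 CPM in MCT2 CO and at 809, 463 and 568 CPM in MCT2 KO. Its difference rested on MCT2 KO replicate 1, since the log2 fold change of 0.30 ± 0.21 was 0.05 at the lowest when 1 sample was left out.

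Of the other glycosidases, the fucosidase Fuca1 was the only one whose groups did not overlap, with means of 65.4 ± 3.57 CPM and 75.5 ± 9.43 CPM (SD, n = 3). Gaa, Gusb, Hexa, Idua and Manba, which act on glycogen, glucuronides, GM2 ganglioside, iduronides and mannosides, had log2 fold changes of 0.11 to 0.21 with overlapping groups. Gla, the alpha-galactosidase that degrades globosides, had the lowest log2 fold change of all members and is singled out here for it. It was at 158, 150 and 203 CPM in MCT2 CO and at 162, 129 and 153 CPM in MCT2 KO. The groups overlapped (-0.20 ± 0.14, adjusted p = 0.675). The promoter window of Gla is the one printed above with the CLEAR core in 2 copies.

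The 5 sulfatases, which strip sulfate from glycosaminoglycans and sulfolipids, had log2 fold changes of 0.04 to 0.41 with a median of 0.22, and a median of 0.06 with 3 of 5 above 0 under that scaling. Galns, which desulfates keratan sulfate and chondroitin 6-sulfate (chromosome 8, 122578242 to 122611463, minus strand), was at 43.8, 41.7 and 34.6 CPM in MCT2 CO and at 58.9, 48.8 and 52.1 CPM in MCT2 KO. All MCT2 KO values were above all MCT2 CO values (0.41 ± 0.12, adjusted p = 0.426, edgeR). Arsa, the arylsulfatase that acts on sulfatide (chromosome 15, 89472476 to 89477425, minus strand), was at 65.0, 67.2 and 58.8 CPM in MCT2 CO and at 73.9, 73.4 and 75.4 CPM in MCT2 KO. The MCT2 KO replicates of Arsa were nearly equal and all above MCT2 CO (0.22 ± 0.08, adjusted p = 0.489).

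Sgsh, which removes sulfate from heparan sulfate, was at 16.1, 15.4 and 13.7 CPM in MCT2 CO and at 23.8, 16.2 and 17.1 CPM in MCT2 KO. The groups did not overlap, but MCT2 CO replicate 1 and MCT2 KO replicate 2 nearly met (0.33 ± 0.16, adjusted p = 0.563), and without MCT2 KO replicate 1 the log2 fold change was 0.15. Arsb, which acts on dermatan sulfate and had the most sulfatase counts, was at 148, 157 and 177 CPM in MCT2 CO and at 142, 197 and 162 CPM in MCT2 KO. Its groups overlapped (0.05 ± 0.13, adjusted p = 0.921). Ids, the iduronate sulfatase, was at 103 ± 3.96 and 106 ± 9.20 CPM (SD, n = 3).

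All 6 enzymes that act on lipids, peptides or phosphate esters had log2 fold changes above 0 (median 0.25), as did 4 of 6 under the scaling to macrophage markers (median 0.07), and in each the groups overlapped. Tpp1, a tripeptidyl peptidase, was at 222, 208 and 182 CPM in MCT2 CO and at 260, 216 and 250 CPM in MCT2 KO (0.24 ± 0.11, adjusted p = 0.546). Asah1, the acid ceramidase and the most abundant of the 6, was at 489, 430 and 445 CPM in MCT2 CO and at 497, 431 and 479 CPM in MCT2 KO (0.05 ± 0.10, adjusted p = 0.907). The thioesterase Ppt1 and the acid phosphatase Acp2 had log2 fold changes of 0.26 ± 0.13 and 0.33 ± 0.17, and the acid sphingomyelinase Smpd1 one of 0.04 ± 0.10.

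Acp5, the tartrate-resistant acid phosphatase, was picked out after its values were seen, because its libraries spread widely. It was at 345, 219 and 127 CPM in MCT2 CO and at 439, 201 and 377 CPM in MCT2 KO. The spread within each group, with an SD of 109 and 123 CPM, was as large as the difference of the means (0.56 ± 0.38, adjusted p = 0.675). Apart from Atp6v0d2, no member varied more among the 6 samples.

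The soluble proteins that are not themselves acid hydrolases had log2 fold changes of 0.08 to 0.39 (median 0.32), with 3 of 4 above 0 and a median of 0.13 under the scaling to macrophage markers. Without MCT2 KO replicate 1 the median was 0.18. Grn, whose product progranulin is cleaved to granulins in lysosomes (chromosome 11, 102430315 to 102437048, plus strand), was at 1125, 1098 and 870 CPM in MCT2 CO and at 1566, 1101 and 1396 CPM in MCT2 KO. MCT2 KO replicate 2 lay within the MCT2 CO range, so the groups overlapped (0.39 ± 0.16, adjusted p = 0.521, edgeR). Psap (chromosome 10, 60277627 to 60302597, plus strand) was at 3187, 3157 and 2656 CPM in MCT2 CO and at 4490, 2929 and 3826 CPM in MCT2 KO (0.32 ± 0.17, adjusted p = 0.597). Gm2a, the activator that lifts GM2 ganglioside to hexosaminidase, was at 284, 266 and 210 CPM in MCT2 CO and at 381, 277 and 295 CPM in MCT2 KO (0.33 ± 0.16, adjusted p = 0.559). In Psap and Gm2a too, MCT2 KO replicate 2 lay within the MCT2 CO range, and without MCT2 KO replicate 1 both log2 fold changes were 0.18. Npc2, the soluble carrier of cholesterol, was at 810 ± 31.0 and 857 ± 121 CPM (SD, n = 3).

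The 6 membrane proteins had log2 fold changes of 0.06 to 0.31, with a median of 0.19 that was 0.09 without MCT2 KO replicate 1 and 0.12 without MCT2 CO replicate 3. Under the scaling to macrophage markers this median was 0.00, with 2 of 6 above 0, while all genes shifted to -0.17. Lamp1, a heavily glycosylated protein that lines the lysosomal membrane (chromosome 8, 13159161 to 13175338, plus strand), was at 430, 415 and 363 CPM in MCT2 CO and at 494, 469 and 471 CPM in MCT2 KO. Its groups did not overlap (0.25 ± 0.10, adjusted p = 0.502, edgeR), but most of its exons lie in the span of Grtp1, so its count is uncertain. Its relative Lamp2 was at 480 ± 37.8 and 501 ± 36.1 CPM (SD, n = 3). Laptm5, the most abundant membrane protein, was at 742, 755 and 655 CPM in MCT2 CO and at 1056, 640 and 804 CPM in MCT2 KO, with the highest and the lowest library both in MCT2 KO (0.22 ± 0.18, adjusted p = 0.729). Without MCT2 KO replicate 1 its log2 fold change was 0.02. The cholesterol exporter Npc1, the calcium channel Mcoln1 and Cln3, the protein deficient in a juvenile form of neuronal ceroid lipofuscinosis, had log2 fold changes of 0.31 ± 0.16, 0.17 ± 0.11 and 0.11 ± 0.16, with overlapping groups.

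Among V-ATPase genes 9 of 12 had a log2 fold change above 0, with a median of 0.15, and under the scaling to macrophage markers 4 of 12 did, with a median of -0.03 beside -0.17 for all genes. Without MCT2 KO replicate 1 the median was 0.08, as it was without MCT2 CO replicate 3. In the catalytic sector V1, 5 of 6 subunits were above 0 (median 0.16), or 3 of 6 under that scaling (median -0.01), and 3 had groups that did not overlap. Atp6v1a, which carries the ATP-hydrolysing site (chromosome 16, 44085402 to 44139705, minus strand), was at 178, 166 and 152 CPM in MCT2 CO and at 217, 205 and 189 CPM in MCT2 KO. Every MCT2 KO value exceeded every MCT2 CO value (0.30 ± 0.09, adjusted p = 0.433, edgeR), and the log2 fold change stayed between 0.24 and 0.36 when single samples were left out. Its promoter window is among those printed above.

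The other subunits of V1 that were separated by group were Atp6v1c1 and Atp6v1e1, both parts of the stator that ties the catalytic ring to V0. They were at 86.7 ± 11.3 and 98.2 ± 1.67 CPM, and at 73.6 ± 3.07 and 80.6 ± 1.21 CPM, in MCT2 CO and MCT2 KO respectively (SD, n = 3), with adjusted p values of 0.625 and 0.605 in edgeR. Atp6v1b2, the B subunit that pairs with A in the ring, had a log2 fold change of 0.23 ± 0.13 with overlapping groups. Atp6v1d, part of the rotor, and Atp6v1h, a regulatory subunit, had values of 0.10 ± 0.11 and -0.02 ± 0.09.

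In the membrane sector V0, 3 of 4 subunits were above 0 (median 0.13). Under the scaling to macrophage markers 1 of 4 was above 0 (median -0.06), and 3 of 4 lay above the median of all genes. Atp6v0c, which forms the proton-carrying ring and had the most V0 counts, was at 189, 178 and 196 CPM in MCT2 CO and at 202, 159 and 167 CPM in MCT2 KO (-0.09 ± 0.11, adjusted p = 0.814). The a1 subunit Atp6v0a1 was at 85.2 ± 11.2 and 90.6 ± 16.4 CPM (SD, n = 3). Of the accessory proteins, Atp6ap1 was at 337, 322 and 263 CPM in MCT2 CO and at 402, 297 and 351 CPM in MCT2 KO, with overlapping groups (0.19 ± 0.14, adjusted p = 0.705, and 0.08 without MCT2 KO replicate 1). Atp6ap2, also known as the prorenin receptor, had a log2 fold change of -0.07 ± 0.10. The subunits of one pump thus ranged from -0.09 to 0.30 with the d2 subunit left aside, and none was called.

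**Figure D4:**
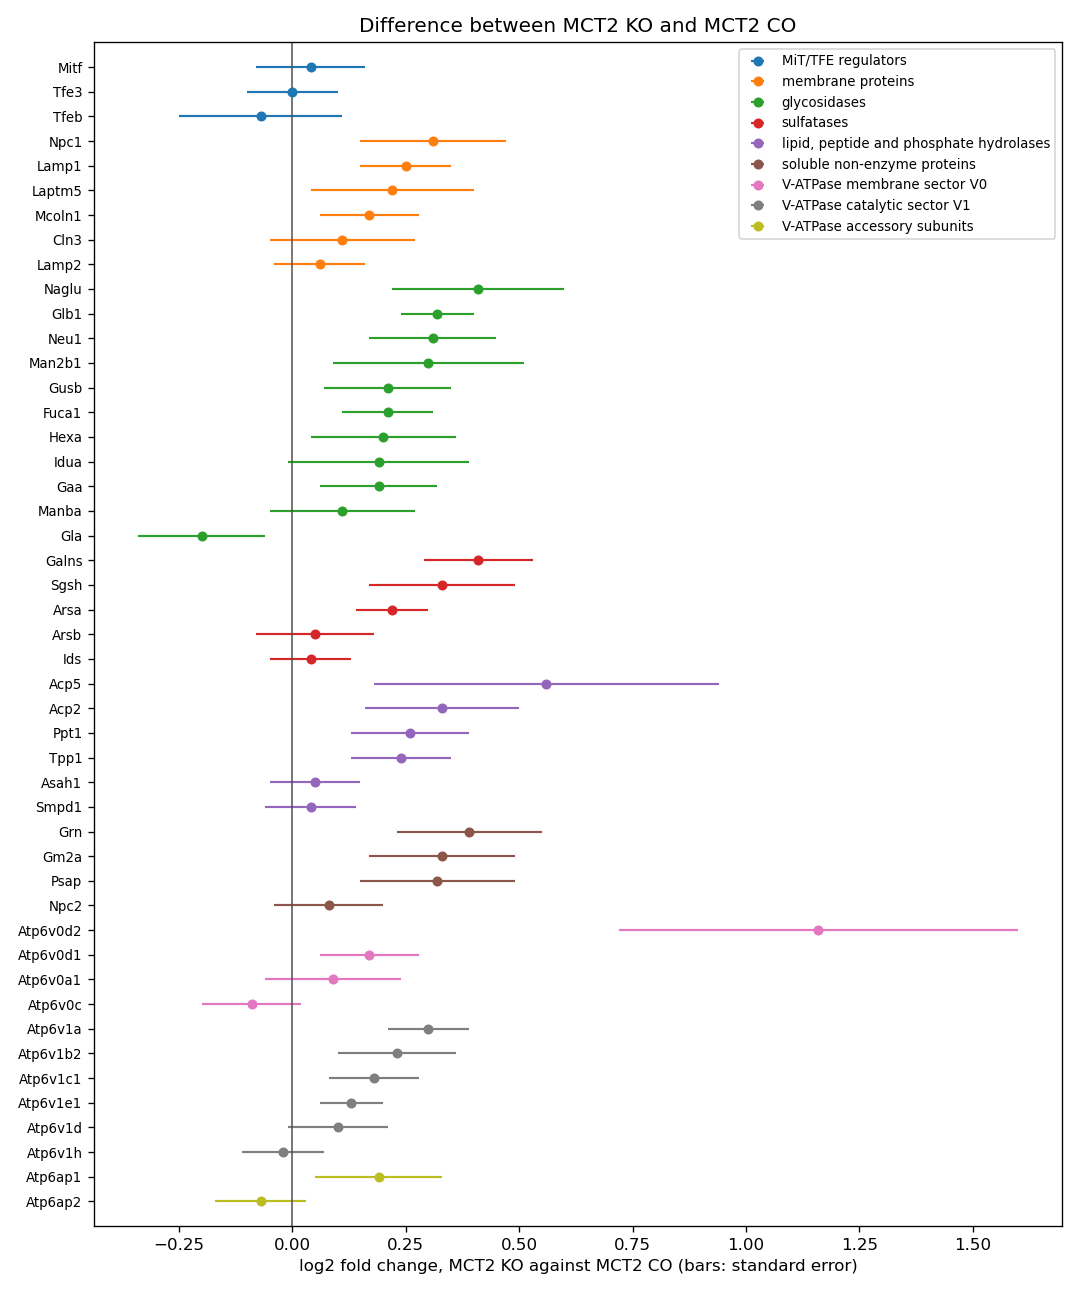
The log2 fold change of each member, MCT2 KO relative to MCT2 CO, with its SE, coloured and grouped by role and ordered within each role. Of the 47 points 42 lie above 0 (24 when libraries are scaled to the macrophage markers, beside 17.0% of all genes), the 3 MiT/TFE regulators lie within -0.07 to 0.04, and Atp6v0d2 stands apart at 1.16 with the widest bar.

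The d subunit of V0 comes in a ubiquitous form, Atp6v0d1, and a second form, Atp6v0d2, known from osteoclasts and fusing macrophages. Atp6v0d1 was at 115, 115 and 99.4 CPM in MCT2 CO and at 141, 113 and 117 CPM in MCT2 KO (0.17 ± 0.11, adjusted p = 0.659, and 0.07 without MCT2 KO replicate 1). Atp6v0d2 (chromosome 4, 19876841 to 19922605, minus strand) had 43, 11 and 37 counts in MCT2 CO and 46, 111 and 48 counts in MCT2 KO. That is 1.43, 0.423 and 1.39 CPM in MCT2 CO and 1.93, 3.41 and 1.93 CPM in MCT2 KO. All MCT2 KO values were above all MCT2 CO values, and the mean was 2.23-fold that of MCT2 CO (1.16 ± 0.44, adjusted p = 0.499, edgeR), the largest difference of any member and the one with the fewest counts behind it. It remained at 1.05 under the scaling to macrophage markers.

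The d2 form was a small share of the d subunit counts throughout. In MCT2 CO it made up 1.23% (0.892 to 1.65), 0.368% (0.184 to 0.657) and 1.38% (0.975 to 1.90) of the d1 and d2 counts, with 95% exact Clopper-Pearson intervals that cover counting error only. In MCT2 KO it made up 1.35% (0.986 to 1.79), 2.94% (2.42 to 3.53) and 1.63% (1.20 to 2.15). MCT2 KO replicate 1 lay below MCT2 CO replicate 3, so the shares overlapped, at 0.993 ± 0.547% and 1.97 ± 0.85% (SD, n = 3). The difference of 0.976 percentage points gave p = 0.2 in a two-sided exact permutation test, for which 0.1 is the smallest value possible with 3 against 3. Without MCT2 KO replicate 2 the difference was 0.492.

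Genes of the same fusing cells were read beside Atp6v0d2. Ocstamp, needed for fusion of osteoclasts and giant cells, was at 16.1, 18.6 and 12.1 CPM in MCT2 CO and at 31.3, 30.8 and 23.6 CPM in MCT2 KO (0.88 ± 0.18, adjusted p = 0.37 in edgeR, and called by DESeq2 with an adjusted p of 0.00446). Dcstamp, with a like role, was at 3.17, 2.54 and 1.35 CPM in MCT2 CO and at 7.55, 3.44 and 3.74 CPM in MCT2 KO (1.05 ± 0.40, adjusted p = 0.497 in edgeR and 0.255 in DESeq2). Neither overlapped between groups. Of the 7 markers of osteoclasts and giant cells, 5 were tested and 4 of those were above 0. Their summed level was 136 to 189 CPM in MCT2 CO and 138 to 187 CPM in MCT2 KO, Calcr, the calcitonin receptor of osteoclasts, was at 0 in all libraries but 1, and Ctsk, Nfatc1 and Mmp9 overlapped. The part of such cells in the Atp6v0d2 values was not tested.

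**Figure D5:**
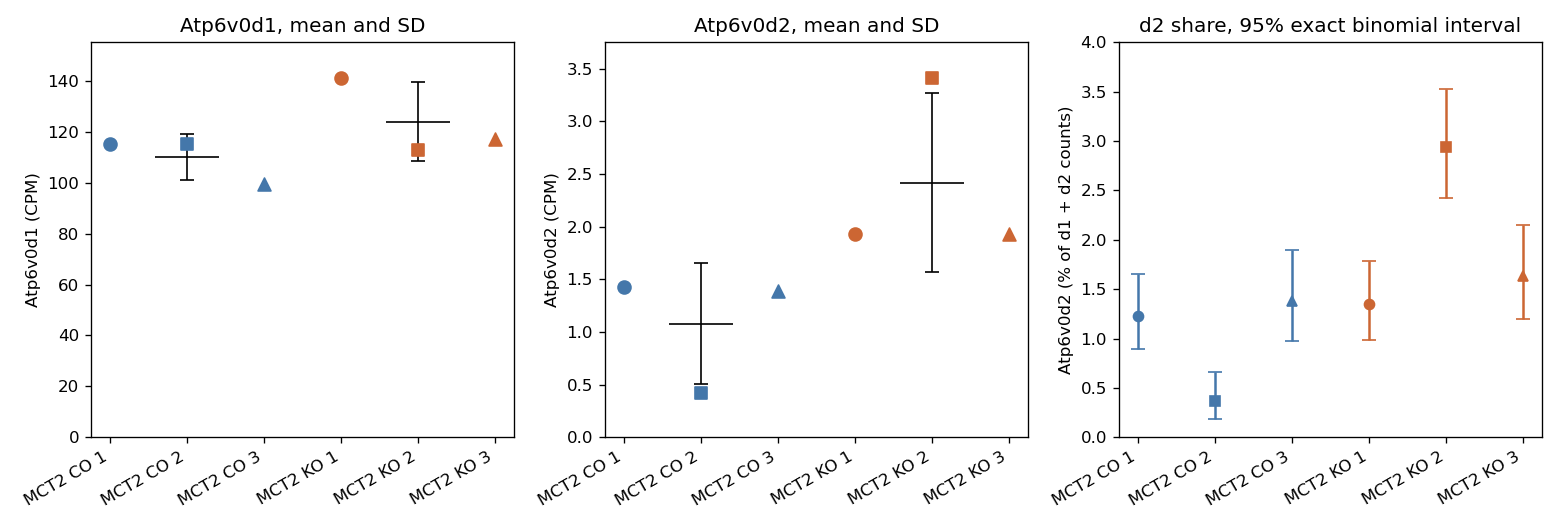
Left and middle, Atp6v0d1 and Atp6v0d2 in CPM in each sample, with the group mean and SD. Right, Atp6v0d2 as a percentage of d1 and d2 counts with its 95% exact binomial interval, from 0.368 in MCT2 CO replicate 2 to 2.94 in MCT2 KO replicate 2.

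Transcripts of the 3 MiT/TFE factors among the members differed little between the groups. Tfeb (chromosome 17, 47737030 to 47792419, plus strand), the factor most studied in lysosome biogenesis, was at 23.5, 25.3 and 22.0 CPM in MCT2 CO and at 29.5, 17.7 and 20.6 CPM in MCT2 KO (-0.07 ± 0.18, adjusted p = 0.929). Its highest and lowest libraries were both MCT2 KO. Tfe3 (chromosome X, 7762560 to 7775202, plus strand), the most abundant of the 3 at 11.6 ± 1.02 CPM per kb in MCT2 CO, was at 99.0, 106 and 118 CPM in MCT2 CO and at 119, 101 and 103 CPM in MCT2 KO (0.00 ± 0.10, adjusted p = 0.993). Mitf, whose product also drives osteoclast genes (chromosome 6, 97807052 to 98021349, plus strand), was at 31.0, 28.8 and 30.5 CPM in MCT2 CO and at 36.6, 28.4 and 27.7 CPM in MCT2 KO (0.04 ± 0.12, adjusted p = 0.945). In all 3, MCT2 KO replicate 1 was the highest library, and the sign of each log2 fold change turned when single samples were left out. Under the scaling to macrophage markers all 3 were below 0, with a median of -0.19 beside -0.17 for all genes.

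Lysosomal genes outside the 47 were described from 5 further lists. Of 16 other hydrolases tested, 15 had a log2 fold change above 0 (median 0.24) and 4 were higher at an unadjusted p under 0.05. Scaled to the macrophage markers, 12 of 16 were above 0 (median 0.07), and 15 of 16 lay above the median of all genes. Among them, the lysosomal DNase Dnase2a was at 64.2, 59.3 and 50.5 CPM in MCT2 CO and at 86.1, 62.3 and 81.1 CPM in MCT2 KO (0.40 ± 0.14, adjusted p = 0.48). The hyaluronidase Hyal1 was near 1 CPM in MCT2 CO, at 1, 1.42 and 0.941, and at 1.34, 2.36 and 2.01 CPM in MCT2 KO (0.77 ± 0.30, adjusted p = 0.499).

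Of 18 other membrane proteins tested, a list that includes the macrophage marker Cd68, 16 were above 0 (median 0.15). When scaled to the macrophage markers 7 were above 0 (median -0.04), and 15 lay above the median of all genes. Without that scaling 2 were higher at an unadjusted p under 0.05. These were Slc38a9, an arginine sensor for mTORC1, at 32.3, 31.2 and 25.6 CPM in MCT2 CO and 39.9, 34.9 and 34.3 CPM in MCT2 KO (0.29 ± 0.12, adjusted p = 0.508), and the sialic acid exporter Slc17a5 (0.24 ± 0.10, adjusted p = 0.513). Both had groups that did not overlap. The 7 other V-ATPase subunits tested had 4 above 0, a median of 0.01 and 0 at an unadjusted p under 0.05. When scaled to the macrophage markers, 0 were above 0 and 2 above the median of all genes, with a median of -0.17. Tcirg1, the a3 subunit of lysosomes and osteoclasts, was at 340, 379 and 300 CPM in MCT2 CO and at 412, 254 and 345 CPM in MCT2 KO, with overlapping groups (-0.01 ± 0.18).

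In mannose 6-phosphate sorting, the route by which new hydrolases reach the lysosome, 12 of 14 genes were above 0 (median 0.12). When scaled to the macrophage markers 4 were above 0 (median -0.07), beside 17.0% of all genes, and 13 lay above the all-gene median of -0.17. Without that scaling 2 were higher at an unadjusted p under 0.05. Cln6, an endoplasmic reticulum protein that helps enzymes leave for the Golgi, was at 35.1, 35.1 and 33.0 CPM in MCT2 CO and at 45.6, 40.0 and 46.2 CPM in MCT2 KO (0.35 ± 0.09, adjusted p = 0.383). The adaptor subunit Ap1b1 had a log2 fold change of 0.32 ± 0.11 (adjusted p = 0.466). The list of 19 genes of mTORC1 and folliculin, which restrain or release Tfeb, also holds the family member Tfec. Of these 19 genes 12 were above 0 (median 0.03). When scaled to the macrophage markers 3 were above 0 (median -0.13), and 12 lay above the median of all genes. Only Fnip2, a folliculin partner, was higher at an unadjusted p under 0.05 in the main fit (0.35 ± 0.12, adjusted p = 0.475). None of the genes in the 5 lists was called in edgeR or DESeq2.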

How the data were processed

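RNA-seq of CD11b+ cells from 3 MCT2 CO and 3 MCT2 KO tumors was analysed from the deposited table of raw counts per gene. The submitters' processing notes name FastQC 0.12.0, MultiQC 1.28, STAR 2.7.11b and Subread featureCounts 2.1.1 with GRCm38. Annotation, feature type and strand setting are not given in the sources used here. The length column that the authors deposited equals the whole gene span in GENCODE M21 for 46 of the 47 members, and counts were read as covering gene spans, introns included. The start column equals that of M21 (GRCm38) for 1 of 47, so printed gene positions and exon lengths come from M21 and promoters from RefSeq GRCm38.p6.

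Groups followed the sample titles. The members and gene lists were chosen with earlier results of these data known. Genes were filtered with filterByExpr (minimum count 10, minimum total 15) and tested with edgeR 4.0.16 (quasi-likelihood test, TMM, all 6 samples, no covariate) in R 4.3.3, with thresholds from the study's methods. The SE was the absolute log2 fold change divided by the square root of the F statistic. DESeq2 1.42.0, limma 3.58.1 (voom), other normalizations and filters, a replicate block and leaving out single samples were alternatives. The share of d2 was tested by an exact permutation test (scipy 1.17.1). Values in every sample are given for the 3 regulators, Atp6v0d1 and Atp6v0d2, the 12 members with the smallest p, the most abundant member by mean CPM of each role, and up to 3 genes a further list with the smallest p under 0.05. A gene that this rule would also name is not reported here. Libraries of 24863611 to 31713704 counts were compared pairwise within each group, and no duplicate was found there. Libraries of different groups were not compared in this way. The number of sample columns left unmapped was 0. Scripts were tested on simulated data. Groups of 3 are small, and p-values measure the spread between these mice.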

Additional observations from a re-analysis of the deposited data

How the results depend on the processing

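No member was called under any alternative run. The number of members higher at an unadjusted p under 0.05, which was 7, was 12 in DESeq2 with the same or all genes, 11 in edgeR without a filter and 1 (Atp6v0d2) with libraries scaled to the macrophage markers, an alternative chosen after seeing the data. The share of all genes was 3.77% in the main run. It was 4.03% and 3.05% in these DESeq2 runs, 3.43% without a filter and 0.845% under the macrophage marker scaling. The number of members higher ranged from 4 to 20 when single samples were left out. It was lowest without MCT2 CO replicate 3 (2.47% of all genes) and highest without MCT2 KO replicate 2 (6.24% of all genes). Without MCT2 CO replicate 1 it was 14 (4.07% of all genes). The number lower was 0 to 1 then, the 1 being Tfeb without MCT2 KO replicate 1. The median log2 fold change of the members was 0.01 under the macrophage marker scaling and 0.11 to 0.25 with single samples left out, and the difference in d2 share was 0.492 to 1.29 percentage points. Under the macrophage marker scaling, in which all genes shifted by -0.17, the log2 fold change turned to -0.09 for Arsb, -0.13 for Asah1, -0.02 for Atp6v0d1, -0.16 for Mitf and -0.19 for Tfe3, and was 0.00, just below zero, for Atp6ap1 and Laptm5. With single samples left out it ranged from -0.08 to 0.17 for Arsb, -0.09 to 0.12 for Mitf, -0.06 to 0.07 for Tfe3 and -0.29 to 0.09 for Tfeb. The cause of these shifts was not tested. Over all genes edgeR called 0, DESeq2 79 within the same filter and 83 without it, edgeR without a filter 2, edgeR without MCT2 KO replicate 2 also 2, and edgeR with macrophage marker scaling 110. With the replicate number as a block, 9 members were higher at an unadjusted p under 0.05, beside 3.37% of all genes. The median of the members was then 0.19 and 0 were called. Samples sharing a number correlated at 0.216, -0.247 and -0.161 in their deviations from the group means, beside -0.212 to 0.292 for samples of unlike number. With groups of 3 these values cannot decide whether the numbers pair mice. Depth limits Atp6v0d2 most, with 11 to 111 counts a library.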
